A study of Rattus norvegicus with 8 samples.

Results

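The 8 h comparison set RNA of castrated rats given testosterone against RNA of castrated controls on 4 of the 8 Agilent arrays of the study, each carrying both RNAs in different dyes. It takes every array labelled 8 h and describes all genes measured on them. Both RNAs came from adult male Wistar rats of about 120 days of age, and castration was shared by the treated and the control group. The treated rats had been injected once under the skin with testosterone propionate, an androgen ester, at 4 mg/kg in corn oil. The labels call the material cells of castrated rats, while the series title names muscle atrophy. The muscle, the interval since castration, the number of animals behind an array and any oil given to the controls are not stated in the labels. The 4 arrays are labelled as replicates, and where they shared animals or extracts, the p-values would measure only technical spread. The treated RNA carried Cy3 on replicates 1 and 2 and Cy5 on replicates 3 and 4. The other 4 arrays hold the same comparison 24 h after the dose, on another slide, and an effect of the slide on any difference between the times cannot be told apart from that of time.

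Testosterone, and dihydrotestosterone made from it, are steroid hormones that change the transcription of their target genes within hours. In rodent skeletal muscle, castration lowers circulating androgen and leads to loss of mass in androgen-sensitive muscles, and replacement restores it. Known androgen targets in muscle include genes of polyamine synthesis, and androgen is also known to oppose the ubiquitin ligases and the glucocorticoid-driven genes of atrophy.

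A total of 10889 genes were tested at 8 h, each by its brightest probe, and every value below is a log2 ratio between treated and control RNA on the same array. A log2 ratio of 1 is a doubling and a value below 0 means less signal in the treated RNA. The fitted value of a gene is its 8 h coefficient in a limma model over all 8 arrays with a term for the dye, given with its standard error (SE). The p-values were adjusted over all genes by the Benjamini-Hochberg method, and genes with an adjusted p under 0.05 are said to pass.

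All 12 muscle fibre markers were well above background in every 8 h sample, treated and control. Among markers of the other cell types, 8 of 10 epithelial and male accessory gland genes on the array (Epcam and Cdh1 among them) and 9 of 12 lymphocyte genes (Cd3e among them) were not well above background in any 8 h sample. Of the 20 macrophage and monocyte markers, 15 were well above background in all 8 h samples.

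The 4 arrays differed in spread and in how they correlated. Over all genes, log2 ratios had an SD of 0.444 on replicate 1, compared with 0.19, 0.18 and 0.201 on replicates 2, 3 and 4, and 134 genes lay above 1 and 355 below -1 on it, compared with at most 11 in either direction on any other 8 h array. The mean signal of the Cy3 channel was 290 on replicate 1 and 136, 147 and 139 on replicates 2, 3 and 4, and it held the treated RNA on replicate 2 and the control RNA on replicates 3 and 4. Over the 10846 genes measured on all 4 arrays, replicate 2 correlated with replicate 1 at 0.283 and with replicates 3 and 4 at -0.126 and -0.0352, while replicates 3 and 4 correlated at 0.353 and replicate 1 with them at 0.291 and 0.374. These correlations run over genes of arrays that share a slide and in part a dye, and the genes are not independent. The log2 ratio also followed the base composition of the probe, with a correlation with GC content of -0.223, 0.0869, -0.181 and -0.404 on replicates 1 to 4. The part of dye and base composition in single ratios was not tested beyond the dye term. Values without replicate 1 or without replicate 2 therefore stand beside some of the results below, but not all. Counts of list members at an unadjusted p under 0.05 are not given without replicate 1. Over all genes that share was 17.1% with all arrays and 4.96% without replicate 1.

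**Figure D1:**
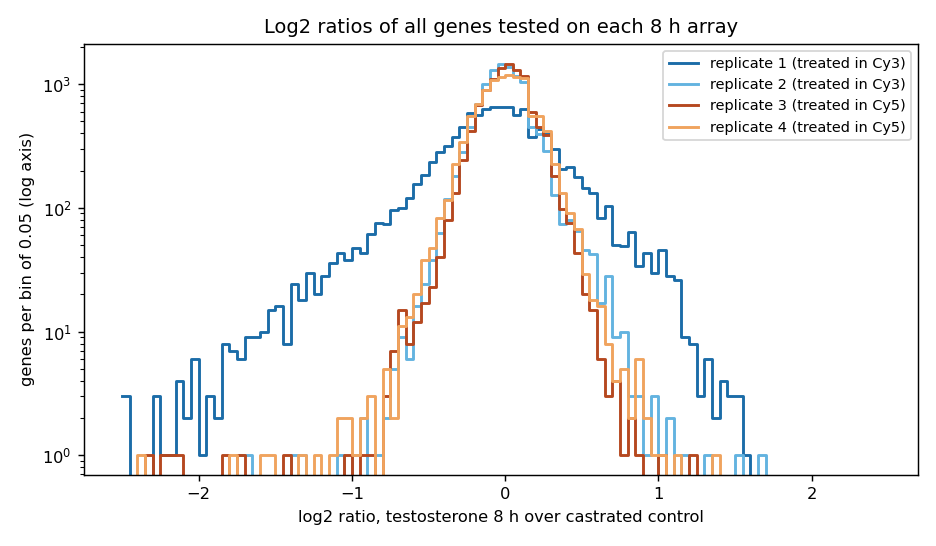
Number of genes (log axis) by log2 ratio of testosterone 8 h over castrated control in bins of 0.05, with a line for each 8 h array; values beyond the axis are drawn in the end bins. Replicate 1 is the widest, with an SD of 0.444 against 0.18 to 0.201 on the other 3 arrays.

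Testosterone for 8 h was followed by a change past the threshold in 3 of 10889 genes (0.0276%), which is the background against which any group of genes below is read. Amd1 and Spns2 rose (0.0184% of genes) and a transcript annotated as a dual specificity phosphatase fell (0.00918%). The probes that measured them are shown by their first 30 of 60 bases, 5′ to 3′ as the array file gives them, because the identity of the third gene rests on its probe. They lie on the rat build rn4, all on the minus strand: Spns2 at chr10:59335805-59335864, Amd1 at chr20:44452568-44452627, the phosphatase transcript at chr10:72335937-72335994, and a separate RefSeq probe for Dusp14 at chr10:72336549-72336608. Whether a probe lies in an exon, an intron or an untranslated region was not determined here.
Spns2: gctgctgattgtgaatctcagagtcttaag
Amd1: aaggcggactagtgatctagtgtgattaca
ENSRNOT00000043148: cttgaaatcagtgtgccctgggatcacatt
Dusp14 RefSeq probe: tcagttaagatggtacagacaccctatggc

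Amd1 encodes S-adenosylmethionine decarboxylase, which supplies the aminopropyl groups of spermidine and spermine. Its log2 ratios were 1.51, 1.17, 1.01 and 1.02 on replicates 1 to 4. All 4 arrays lay above 1, and the replicate with the widest spread gave the highest value. The array carries this probe 10 times, and of the 7 to 10 spots used per array the SD between spots was 0.08 or 0.09. The fitted value was 1.17 (SE 0.14), a 2.26-fold rise with an adjusted p of 0.0282. At 24 h Amd1 stood at 1.42, and the difference between the times did not pass (adjusted p = 0.558), as it did for 1.29% of all genes.

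Spns2 encodes a transporter that exports sphingosine 1-phosphate from cells. The log2 ratios were 1.04, 0.96, 0.40 and 0.84, with replicate 3 the lowest and every array above 0. The fitted rise was 0.81 (SE 0.09, 95% interval 0.62 to 1.00), or 1.75-fold, with an adjusted p of 0.0282. The 24 h value was higher, at 1.39, and the adjusted p of the difference was 0.0504.

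The transcript that fell, ENSRNOT00000043148, is described in the array annotation as Dusp14, a phosphatase that acts on MAP kinases. It stood at -0.44, -0.33, -0.69 and -0.65 on replicates 1 to 4 and fell by 0.53 (SE 0.06), with an adjusted p of 0.0282. Both Cy5 arrays lay below both Cy3 arrays. The RefSeq probe for Dusp14 lies 554 bases away and was not well above background in any 8 h sample, with ratios of -0.01, 0.17, -0.09 and -0.15. The fall was thus seen with the Ensembl transcript's probe alone. At 24 h that probe stood at -0.55.

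The number of genes that passed rested on single arrays. Without replicate 2 it was 1228 (11.3% of genes), of which 386 (3.55%) were higher and 842 (7.73%) lower, and the 3 genes above were among them. Without replicates 1, 3 and 4 it was 0, 0 and 1, the 1 being Myh1, and without an array of the 24 h group it was 0 or 1. Amd1, Spns2 and ENSRNOT00000043148 kept their direction in every one of these fits, with fitted values of 1.05 to 1.24, 0.72 to 0.90 and -0.55 to -0.51. With median centring in place of loess none of the genes passed, and with the scanner's processed signals only the amino acid transporter gene Slc7a6 did (adjusted p = 0.044). None of the 4 control samples had Slc7a6 well above background, so its fold rests on a dim control signal. It was 1.34-fold higher on the loess-normalized values (fitted 0.42, SE 0.1). This value is not a lower limit, because it leaves out the spread between arrays.

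At an unadjusted p under 0.05, 1865 genes (17.1%) were counted where 544 are expected by chance, 662 (6.08%) higher and 1203 (11%) lower. Without replicate 1 this count was 540 (4.96%). The same sign was seen on all 4 arrays for 2325 genes (21.4%), 1021 (9.38%) above 0 and 1304 (12%) below 0. Most fitted values were small: the middle of the distribution ran from -0.11 to 0.08 between the quartiles, and 6 genes (0.0551%) had a fitted value of 1 or more either way.

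**Figure D2:**
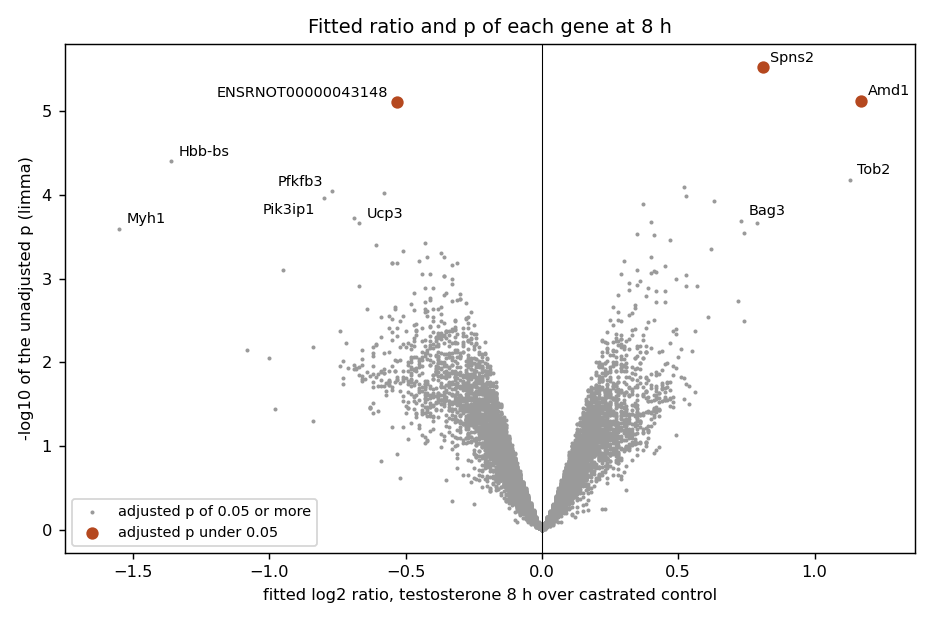
Fitted log2 ratio of testosterone 8 h over castrated control against the -log10 of the unadjusted limma p for each gene. Spns2, Amd1 and ENSRNOT00000043148 (large points) pass at an adjusted p of 0.0282, and the next gene, Hbb-bs, has an adjusted p of 0.106.

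After the 3 genes, the 12 higher and 12 lower genes with the smallest p and the same sign on all 4 arrays, with the 10 of each direction with the largest mean, gave 15 higher and 17 lower genes with a symbol. Spns2 and Amd1 are 2 of the 15. The other 30 genes did not pass, with adjusted p from 0.106 to 0.264, and are described by their values. Without replicate 2, 31 of these 32 passed, beside 11.3% of all genes, the exception being Bcl6 (adjusted p = 0.0897). The 32 were chosen by p or mean on these same arrays, so this count was largely set by the choice and is not independent evidence. Without replicate 1 none of the 32 passed, and the adjusted p of the 30 genes outside the threshold ran from 0.193 (Zbtb38) to 0.905.

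Among the higher genes, Tob2, an antiproliferative protein that recruits enzymes that shorten poly(A) tails, had ratios of 1.49, 1.70, 0.53 and 0.83. Its fitted value of 1.13 (SE 0.17, adjusted p = 0.116) was close in size to that of Amd1, and for both genes the 2 Cy3 arrays lay above the 2 Cy5 arrays, as they did for Spns2. Ppp1r3c, which targets protein phosphatase 1 to glycogen, stood at 0.77, 0.63, 0.61 and 1.14. Here the arrays of both dyes overlapped, and the fitted value was 0.79 (SE 0.14). Bag3, a cochaperone of the Z disc, had ratios of 1.17, 0.48, 0.34 and 0.94 over a probe spotted 10 times, with a fitted value of 0.73 (SE 0.13), and its 24 h value was 0.88.

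Arhgap12, a GTPase activating protein, stood at 1.15, 0.42, 0.52 and 0.87, and Tmem43, a protein of the nuclear envelope, at 0.88, 0.47, 0.49 and 0.66. The second kept probe of Tmem43 gave a smaller mean of 0.13. Several other higher genes were tight between arrays. Slc49a4, a lysosomal transporter, had ratios of 0.52, 0.49, 0.73 and 0.34, Slc25a30, a mitochondrial carrier, 0.46, 0.48, 0.48 and 0.70, and Tmod4, which caps thin filaments, 0.50, 0.41, 0.28 and 0.27. Atg4a, a protease of autophagosome formation, stood at 0.25, 0.30, 0.35 and 0.51, its second probe at 0.39. It was further from 0 at 24 h, at 0.91, and that difference passed (adjusted p = 0.0211).

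Gpd1, the cytosolic glycerol 3-phosphate dehydrogenase, was split by dye, with 0.87 and 0.59 on the Cy3 arrays and 0.08 and 0.07 on the Cy5 arrays. Its 24 h value was -0.19. The muscle regulatory factor Myf6 stood at 1.18, 0.41, 0.43 and 0.87 (fitted 0.72, SE 0.17), Srxn1, which repairs peroxiredoxins, at 0.80, 0.51, 0.21 and 0.98, and the transcriptional repressor Bcl6 at 0.70, 0.85, 0.06 and 1.35. Srxn1 was on the other side of 0 at 24 h, at -0.54 (adjusted p of the difference 0.0129).

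**Figure D3:**
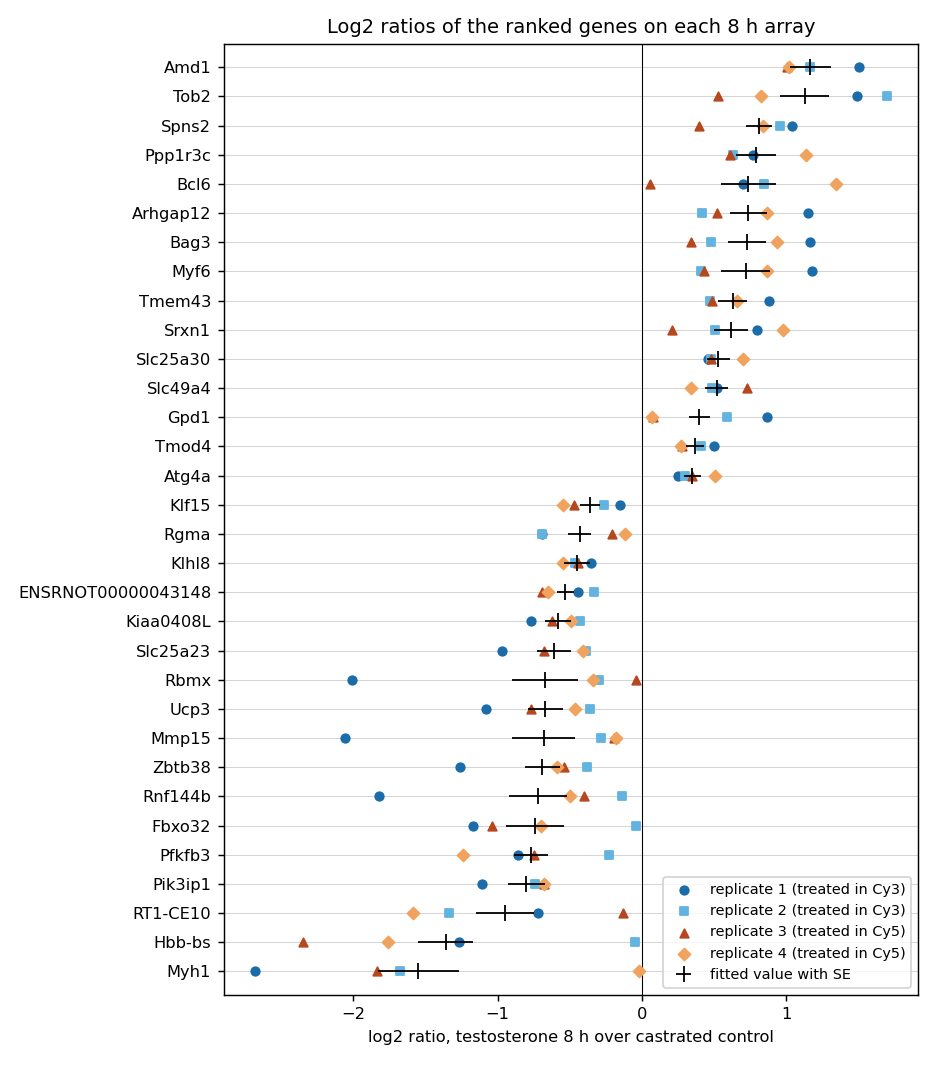
Log2 ratio of testosterone 8 h over castrated control on each array (symbols, by replicate and dye) and the fitted value with its SE (black), for the ranked genes reported here and ENSRNOT00000043148, ordered by fitted value. Amd1 lies above 1 on all 4 arrays, while Mmp15, Rbmx and Rnf144b lie far from their other arrays on replicate 1, at -2.06, -2.01 and -1.82.

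Among the lower genes, Pik3ip1, which restrains PI3K, the lipid kinase of growth factor signalling, had ratios of -1.11, -0.74, -0.68 and -0.68. The last 3 arrays lay close together, and the fitted value was -0.80 (SE 0.13, adjusted p = 0.116). Its 24 h value was -1.80, further from 0 by more than the spread between arrays (adjusted p of the difference 0.0332). Ucp3, a mitochondrial uncoupling protein of muscle, stood at -1.08, -0.36, -0.77 and -0.46, and Klf15, a glucocorticoid-induced transcription factor, at -0.15, -0.26, -0.47 and -0.55. Both were also lower at 24 h than at 8 h, at -1.97 and -1.10 (adjusted p of the difference 0.00835 and 0.00991).

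Pfkfb3, which makes the glycolytic activator fructose 2,6-bisphosphate, had ratios of -0.86, -0.23, -0.75 and -1.24. Replicate 2 was the array nearest 0, and the second kept probe of Pfkfb3 gave -0.49, -0.41, -0.44 and -0.60. Zbtb38, a zinc finger protein that binds methylated DNA, stood at -1.26, -0.38, -0.54 and -0.59, Slc25a23, a mitochondrial carrier of ATP and phosphate, at -0.97, -0.39, -0.68 and -0.41, and Klhl8, a substrate adaptor of cullin ligases, at -0.35, -0.46, -0.44 and -0.55. Kiaa0408L, with ratios of -0.77, -0.43, -0.62 and -0.49, stood at -1.07 at 24 h, and the difference did not pass (adjusted p = 0.0947). Rgma, a coreceptor of bone morphogenetic proteins, was split by dye, at -0.69 and -0.69 in Cy3 and -0.21 and -0.12 in Cy5, and its second probe had a mean of -0.10.

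The largest fitted values below 0 were uneven between arrays. Myh1, the fast 2X myosin heavy chain, had the lowest of all genes tested, -1.55 (SE 0.28, adjusted p = 0.153), from ratios of -2.68, -1.68, -1.84 and -0.02. Replicate 4 showed next to no difference for it, and at 24 h Myh1 lay above 0, at 1.33 (adjusted p of the difference 0.0104). Sarcomeric myosin genes share long stretches of sequence, and whether the Myh1 probe also reads another myosin was not tested. RT1-CE10, a class I histocompatibility gene of a large gene family, stood at -0.72, -1.34, -0.13 and -1.59 and was well above background in 2 of 4 treated and 3 of 4 control samples. Mmp15, a membrane metalloproteinase, stood at -2.06 on replicate 1 and between -0.28 and -0.18 on the others. Rbmx, an RNA-binding splicing factor, was at -2.01 on replicate 1 and between -0.34 and -0.04 elsewhere, and Rnf144b, a ubiquitin ligase, at -1.82 and between -0.50 and -0.14. Without replicate 1 the fitted values of these 3 genes were -0.26, -0.26 and -0.34, and second probes of Mmp15 and Rnf144b had means of -0.18 and -0.04.

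Globin genes, which mark erythrocytes, varied widely between arrays. Hbb-bs had ratios of -1.27, -0.05, -2.35 and -1.76, with a fitted value of -1.36 (SE 0.19, adjusted p = 0.106), the smallest p after the 3 genes that passed. Hba-a1 stood at -1.85, 0.45, -2.18 and -0.34 and Hbb at -1.42, 0.39, -2.25 and -0.09. The arrays thus ran from a small positive to a large negative ratio, and for Hbb-bs the direction differed at 24 h, where it stood at 0.60 (adjusted p of the difference 0.0112). Globin genes share sequence, and the probes may not separate them. Slc4a1, Epb42 and Ahsp, other erythrocyte genes, were not well above background in any 8 h sample. In these bulk samples fewer cells of a type and less RNA per cell cannot be told apart.

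Of 17 measured polyamine genes, Amd1 was the member that passed. In the synthesis branch, with 7 of 8 genes measured, the median was -0.09. Sms, spermine synthase, stood at -1.19, -0.30, 0.05 and -0.13 (fitted -0.39, adjusted p = 0.264), and a second Sms probe had a mean of -0.07. Srm, spermidine synthase, had ratios of -0.31, -0.03, -0.05 and 0.04, and a second Srm probe a mean of 0.15 on the other side of 0. Odc1, ornithine decarboxylase, was well above background in 2 treated samples and in no control sample, with ratios of 0.49, -0.10, 0.10 and -0.07 and no common direction. The breakdown enzymes Smox (-0.40, 0.08, -0.24, -0.08) and Sat1 (0.01, -0.27, 0.04, 0.43) straddled 0. The median of the list was 0.01, beside -0.01 for all genes.

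Of the sphingosine 1-phosphate genes, 7 of 19 were measured and Spns2 alone passed. Plpp3, a lipid phosphatase that degrades sphingosine 1-phosphate, stood at 0.36, 0.16, 0.38 and -0.05 (adjusted p = 0.316). The receptors that were measured had fitted values of -0.01 and 0.01.

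In the list of steroid receptors and their chaperones, none of 14 measured genes passed and the median was 0.02. The glucocorticoid receptor gene Nr3c1 had ratios of -0.32, -0.17, -0.29 and -0.22 (adjusted p = 0.264). It was well above background in all 4 control samples and in no treated sample, so its fold rests on a dim treated signal. The fitted value was -0.25 (SE 0.07), or 1.19-fold lower, and is not a lower limit. Among 12 receptor chaperones and coregulators, Hsp90aa1 stood at 0.63, 0.14, 0.26 and 0.50 and its other probes at 0.36 and 0.21. Fkbp5, a cochaperone induced by several steroid receptors, had ratios of 0.50, 0.32, 0.09 and 0.45 (fitted 0.34, adjusted p = 0.264), and 0.86 at 24 h. At 8 h it was well above background in all 4 treated samples and in 2 control samples.

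The list of 17 measured androgen-responsive genes, which includes Amd1 and Spns2, had 2 members past the threshold. It had 12 above 0, beside 46.6% of all genes, and a median of 0.10. The list was chosen with earlier results of these arrays known, so its direction is not independent evidence. Igfbp3, a carrier of insulin-like growth factors, stood at 0.14, -0.22, -0.80 and -1.32, with the Cy5 arrays lower than the Cy3 arrays, and a fitted value of -0.55 (adjusted p = 0.197). Its 24 h value was -1.84 (adjusted p of the difference 0.00763).

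In the insulin-like growth factor, PI3K and mTOR list, none of 36 measured genes passed, 8 were lower and 2 higher at an unadjusted p under 0.05 (11% and 6.08% of all genes), and the median was -0.05. Without replicate 2, 8 of the 36 passed and all 8 were lower, beside 7.73% of all genes. Igf1 had ratios of 0.69, 0.96, -0.28 and 0.15, with the Cy3 arrays high and the Cy5 arrays near 0 (fitted 0.38, adjusted p = 0.265). A second Igf1 probe stood at 0.96, 0.80, 0.31 and 0.07. The 24 h value of the tested Igf1 probe was 1.75, and the difference passed (adjusted p = 0.0105). Igf2r, the scavenger receptor of Igf2, stood at -0.85, -0.62, -0.31 and 0.02, and Ddit4, an inhibitor of mTOR signalling, at -0.36, -0.02, -0.55 and -0.44. Igfbp5 had no common direction, at -0.32, 0.33, 0.01 and -0.92.

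The muscle ubiquitin ligases lay evenly on both sides of 0. Of 18 measured, none passed, 9 were above and 9 below 0, and the median was -0.01. Fbxo32, atrogin-1, stood at -1.17, -0.04, -1.04 and -0.70, with replicate 2 at almost no difference (fitted -0.74, SE 0.20, adjusted p = 0.264). Without replicate 2 its fitted value was -1.04 (adjusted p = 0.0125), and without replicate 1 it was -0.59 (adjusted p = 0.905). Trim63, MuRF1, lay mostly on the other side, at 0.18, 0.77, -0.19 and 0.15. At 24 h they stood at -2.48 and -0.68, and the difference between times passed for Fbxo32 (adjusted p = 0.0211) and not for Trim63 (adjusted p = 0.0613).

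Klhl38, another atrophy gene, stood at -0.22, -0.17, -0.68 and -0.33 at 8 h and at -1.94 at 24 h, whereas Trim54, a sarcomeric relative of MuRF1, had ratios of 0.48, 0.45, 0.19 and 0.20. Fbxo31 was measured on 3 arrays, at -0.54, -0.66 and -0.10. Of 25 autophagy and lysosome genes measured in their own list, 1 had an unadjusted p under 0.05, beside 17.1% of all genes. It was Optn, an autophagy receptor, at -0.14, -0.15, -0.18 and -0.17, whose other probes had means of 0.16 and -0.12. The lysosomal protease Ctsb, measured on 3 arrays, stood at -1.22 on replicate 1 and at -0.25 and 0.08 on replicates 3 and 4.

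Glucocorticoid-induced genes went both ways. Of 19 measured, 4 were higher and 4 lower at an unadjusted p under 0.05, beside 6.08% and 11% of all genes, and the median was -0.07. Klf15 has been described above. Klf9, another steroid-induced factor of the same family, stood at 0.82, 0.78, -0.24 and 0.11, the Cy3 arrays again high, and Cdkn1a, a cell cycle inhibitor, at -1.01, 0.02, -0.34 and -0.45. Per1, a clock gene induced by glucocorticoids, had ratios of -0.34, -0.21, -0.14 and -0.11 (adjusted p = 0.265).

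Among the myogenic regulators, 18 of 25 were measured and none passed. Beside Myf6, Myod1 stood at 0.40, 0.21, 0.08 and 0.30, and Myog at 0.05, -0.09, -0.05 and -0.04. Myf5 had ratios of -0.41, -0.11, -0.12 and -0.22, and Eya1, a transcriptional cofactor of fast fibres, of -0.45, -0.29, -0.09 and -0.02. Mrtfa, which activates transcription with serum response factor, was split by dye, at 0.13 and -0.01 in Cy3 and -0.68 and -0.67 in Cy5, and its other probe had a mean of 0.01. In the myostatin, activin and bone morphogenetic protein list, none of 18 passed and the median was 0.00. Mstn, myostatin, stood at 0.19, 0.43, 0.11 and 0.02, and the receptor gene Acvr2b at -1.02, -0.45, -0.45 and -0.23 (fitted -0.54, adjusted p = 0.264).

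Contractile genes varied between arrays. The 18 fast fibre genes had array medians of 0.03, 0.50, -0.21 and 0.05, and the 12 muscle fibre markers of -0.20, 0.48, -0.25 and -0.02, so replicate 2 stood above the rest in both. With median centring the median of the fast fibre genes was 0.65 in place of 0.11. Myh4, the fast 2B myosin, had ratios of 0.23, 0.65, -0.70 and 0.06. Myl1, a fast light chain, stood at 0.98, 0.32, 0.21 and 0.17, Myoz1, a fast fibre protein of the Z disc, at 0.39, 0.47, 0.12 and 0.07, and Tnnt3 was measured on replicates 1 and 2 only, at 0.30 and 0.68. Of the other sarcomere genes, Myot, myotilin, stood at 1.11, 0.18, 0.30 and 0.63 and Flnc, filamin C, at -0.62, -0.27, -0.21 and -0.16. The median of these 20 genes was 0.00, with 5 above and 3 below 0 on all 4 arrays, beside 9.38% and 12% of all genes.

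In glycolysis and glycogen metabolism, 4 of 27 genes were higher and 3 lower at an unadjusted p under 0.05, beside 6.08% and 11% of all genes, and the median was 0.02. The 2 genes furthest from 0 were the regulators Ppp1r3c and Pfkfb3, which lay on opposite sides. Slc2a4, the insulin-responsive glucose transporter, stood at 1.00, 0.42, -0.09 and 0.29, and Gys1, muscle glycogen synthase, at -0.37, -0.31, -0.18 and 0.07. In fatty acid oxidation, with 28 genes measured, Ucp3 was the furthest from 0. Acads, a short-chain dehydrogenase, had ratios of -0.42, -0.34, -0.15 and -0.04, and Pnpla2, the first lipase of triglyceride breakdown, 0.07, 0.26, 0.19 and 0.63.

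Oxidative phosphorylation and TCA cycle genes had 11 of 49 measured members higher and 1 lower at an unadjusted p under 0.05, beside 6.08% and 11% of all genes, and none passed. Their array medians were 0.22, 0.14, -0.09 and 0.02, higher on both Cy3 arrays than on the Cy5 arrays, and the part of the dye beyond its model term was not tested. Ndufv2, a complex I subunit, stood at 0.97, 0.24, -0.04 and 0.24, and Uqcrfs1, the iron-sulphur subunit of complex III, at 0.74, 0.14, 0.14 and 0.16. With median centring in place of loess, 48 of the 49 lay above 0, with a median of 0.49 where that of all genes was 0.12. Of 42 proteasome subunits, 33 lay above 0, beside 46.6% of all genes. At an unadjusted p under 0.05, 2 of the subunits were higher and 1 lower, beside 6.08% and 11% of all genes. Their median was 0.09, or 0.41 with median centring, and the array medians of 0.26, 0.00, 0.02 and 0.12 did not follow the dye. Psma2 of the core stood at 1.12, 0.18, 0.24 and 0.34, while Psmd11 of the cap stood at -0.87, -0.26, 0.00 and -0.07.

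Heat shock and unfolded protein response genes had 8 of 40 measured members higher and 1 lower at an unadjusted p under 0.05 (6.08% and 11% of all genes), with a median of 0.07. Bag3 and Hsp90aa1 led the cytosolic members. In the endoplasmic reticulum group, the stress factor gene Atf4 stood at 0.71, 0.16, 0.27 and 0.39, and the chaperone gene Hspa5 at 0.92, 0.30, -0.03 and 0.36. Without replicate 2, 4 of 39 measured members passed, all higher, beside 3.55% of all genes.

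Among 14 measured amino acid transporter genes, 3 were higher and 2 lower at an unadjusted p under 0.05, beside 6.08% and 11% of all genes. The 3 higher genes were Slc38a2 (0.82, 0.67, 0.19, 0.20), a sodium-coupled transporter of neutral amino acids, Slc7a8 (0.34, 0.41, 0.32, 0.31) and Slc7a6 (0.83, 0.26, 0.26, 0.34), both light chains of heteromeric exchangers. Slc7a8 was even between arrays, with a fitted value of 0.35 (SE 0.08, adjusted p = 0.230). Slc7a6 was well above background in all 4 treated samples and in no control sample. The Nrf2 target Gclc, which starts glutathione synthesis, stood at 0.48, 0.18, 0.18 and 0.34. It was well above background in 3 treated samples and 1 control sample, so its ratios rest on a dim control signal. Srxn1 lies with it in the oxidative stress list, whose median over 25 genes was 0.00.

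Of 32 ribosome biogenesis genes, 23 lay above 0, beside 46.6% of all genes, and none passed with or without replicate 2. The median was 0.08, and the array medians were 0.10, 0.01, 0.07 and 0.08. Gnl3, nucleostemin, had ratios of 0.34, 0.10, 0.10 and 0.45. Of 19 immediate early genes, Klf10 had the smallest p, at 0.42, 0.28, 0.30 and 0.68 (adjusted p = 0.238), and Klf6, at -0.20, -0.17, -0.21 and -0.15, lay below 0 on every array.

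Macrophage and monocyte markers were the list furthest below 0 among those with 5 or more measured genes. Of 16 measured, 15 lay below 0, beside 5811 of all 10889 genes, and none passed. At an unadjusted p under 0.05, 12 were lower, and 8 were lower on all 4 arrays, beside 11% and 12% of all genes. The median was -0.31, and the array medians were -0.70, -0.20, -0.17 and -0.08, all below 0, with replicate 1 the lowest. C1qc, a chain of complement C1q, was even, at -0.42, -0.23, -0.37 and -0.30. Fcer1g, a receptor signalling chain, stood at -0.30, -0.40, -0.22 and -0.28, and Cd163, the haemoglobin scavenger receptor, at -0.74, -0.17, -0.29 and -0.20. These 3 markers lay above 0 at 24 h, at 0.43, 0.40 and 0.50, and each difference passed. Itgam, an integrin chain of myeloid cells, was uneven, at -0.97, 0.01, -0.22 and -0.51, and its difference from the 24 h value of -0.10 did not pass (adjusted p = 0.427). Without replicate 1 the median of the list was -0.18, and with median centring in place of loess it was 0.01, where the median of all genes was 0.12, so relative to all genes it moved from -0.30 to -0.11.

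Extracellular matrix genes showed the same side with a smaller size. Of 34 measured, 29 lay below 0 and 9 were lower at an unadjusted p under 0.05, beside 5811 of 10889 genes and 11% of genes. The median was -0.13, and relative to all genes it was -0.12 both with loess and with median centring. All 12 measured collagen genes had fitted values below 0. Col1a2 stood at -1.56, -0.80, -0.23 and 0.01, Col1a1 at -1.54, -0.97, 0.02 and 0.25, and Col3a1 at -1.34, -0.95, 0.19 and -0.30. The Cy3 arrays held nearly all of the difference, and at 24 h the 3 genes stood at 1.13, 1.54 and 1.48, each differing from 8 h past the threshold. Nid1, nidogen of the basement membrane, was lower on each array, at -0.45, -0.19, -0.12 and -0.35, and Serpinh1, the collagen chaperone, stood at -0.43, 0.00, -0.18 and -0.35.

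Markers of 4 other cell types in muscle also had medians below 0. These were -0.14 for 12 fibroblast genes, -0.10 for 9 endothelial genes, -0.11 for 12 smooth muscle and pericyte genes and -0.16 for 6 adipocyte genes, and none of these genes passed. With median centring they were -0.05, 0.03, 0.04 and 0.05, where the median of all genes was 0.12, so relative to all genes they were -0.17, -0.09, -0.08 and -0.07. Without replicate 1 the endothelial median was 0.02, with 5 genes above and 4 below 0, and the others were -0.14, -0.07 and -0.13. Schwann cell and nerve markers had a median of 0.09 over 6 genes, and satellite cell markers of -0.01 over 5. On replicate 1 the endothelial and smooth muscle medians were -0.35 and -0.32, against -0.15 to -0.01 on the other arrays. Vwf, von Willebrand factor of endothelium, stood at -0.83, -0.23, -0.09 and -0.37, although its other probes had means of 0.07 and -0.29. Smtn, smoothelin of smooth muscle, stood at -0.93, -0.36, -0.17 and -0.27, although its second probe had a mean of -0.02. Tcf4, a transcription factor gene counted among the 12 fibroblast genes by its symbol, had ratios of -0.92, -0.20, -0.37 and -0.20. Whether the gene measured by this probe marks fibroblasts of muscle was not tested. The part of these cell types in the values of single genes was not tested.

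**Figure D4:**
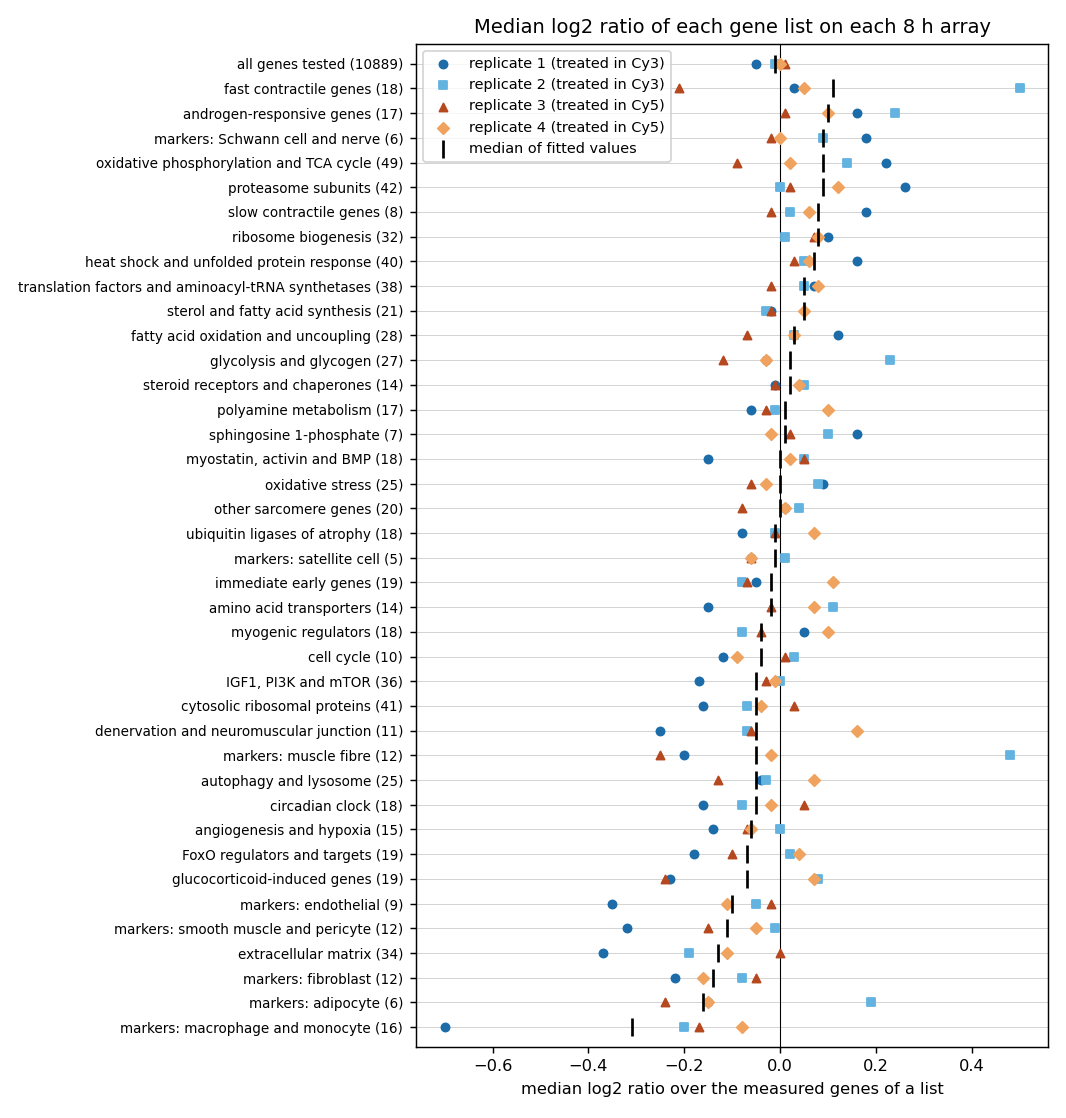
Median log2 ratio of testosterone 8 h over castrated control for each gene list with 5 or more measured genes, on each array (symbols) and over fitted values (black ticks), with the number of measured genes in brackets. Macrophage and monocyte markers lie lowest, at -0.31, and on replicate 1 reach -0.70, while fast contractile genes range from -0.21 to 0.50 between arrays.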

How the data were processed

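Total RNA was labelled with a Quick Amp kit and hybridised to 2-colour Agilent arrays, and, per the submitters' processing notes, Agilent Feature Extraction 9.5.3.1 quantified the scans. The deposited mean signals and local backgrounds are linear intensities, and the deposited LogRatio is a log10 ratio of red over green, per the file headers. The authors' table holds log2 ratios with scale, centring and direction unstated; its values equalled log2 of the processed treated over control signals within 1.31e-05 on the 8 h arrays, with column medians of -0.0553, 0.0896, -0.105 and -0.0709.

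Mean signals were corrected by normexp (offset 50), normalized by loess within arrays, and turned to treated over control (limma 3.58.1, R 4.3.3). Of 42877 gene spots per array, 790 to 838 with outlier flags were left out on the 8 h arrays. Probes well above background on at least 3 of 4 arrays in at least 1 RNA group were kept, 12074 of 30367, and the brightest stood for a gene (1068 genes had several). Names came from RefSeq (GRCr8, names only) for 18342 probes by accession and 3043 by symbol; 138 kept the file's symbol and 8844 had none. Positions are on rn4; exons and untranslated regions were not determined.

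A linear model (a term per time and a dye term) was fitted to all 8 arrays (lmFit, eBayes; two-sided; Benjamini-Hochberg over 10889 genes; 4 more were not estimable at 8 h). The script was tested on simulated data. Named genes are those past the threshold, the 12 with the smallest p and the 10 with the largest mean in each direction among genes with a symbol and 1 sign on all 4 arrays, 24 genes set by name, and up to 4 members with the smallest p of each list described; Fbxo31, Ctsb, Tnnt3 and Psmd11 come in this way. Some genes within this rule are not reported here. The genes and lists were chosen with earlier results of these data known. Scaling, background correction, filters, probe choice, dye term, samples, weights, replicate block and prior were varied. The number of arrays limits the precision.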

Additional observations from a re-analysis of the deposited data

Results flagged for a closer look

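One array set itself apart as a whole: log2 ratios had an SD over genes of 0.444 on replicate 1, far from the other 3. Of 127 named genes measured on all 4 arrays, 10 had an array further from the rest than Dixon's limit allows, where chance gives about 1 in 20, and for 8 of the 10 the array was replicate 1. These were Pik3ip1 (-1.11), Slc7a6 (0.83), Psma2 (1.12), Uqcrfs1 (0.74), Mmp15 (-2.06), Rbmx (-2.01), Ankrd23, an ankyrin repeat protein of the sarcomere (-0.52), and Oat, ornithine aminotransferase (0.56). On replicate 2 it was the pericyte marker Rgs5 (0.11, against -0.38 to -0.32 elsewhere), and on replicate 4 Slc25a30 (0.70). Of 27 list medians, that of the myostatin, activin and bone morphogenetic protein list stood apart on replicate 1 (-0.15) and that of the immediate early genes on replicate 4 (0.11).

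For 22 named genes the ratio at 24 h differed from that at 8 h past the threshold (adjusted limma p under 0.05), beside 141 of all genes (1.29%). The differences, 24 h minus 8 h, were above 0 for Myh1 (2.88), Col1a1 (2.10), Col3a1 (2.08), Hbb-bs (1.96), Col1a2 (1.78), Mrtfa (1.74), Igf1 (1.37), Cd163 (0.85), C1qc (0.76), Fcer1g (0.70), Fabp4, a fatty acid binding protein of endothelium and fat (0.60), and Atg4a (0.56). They were below 0 for Fbxo32 (-1.74), Klhl38 (-1.59), Ucp3 (-1.30), Igfbp3 (-1.29), Srxn1 (-1.17), Pik3ip1 (-1), Klf9 (-0.76), Klf15 (-0.75), Slc38a2 (-0.66) and Gpd1 (-0.59). Time and slide were confounded, as described above.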

How the results depend on the processing

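The count of 3 genes was kept, with the same 3 genes, without background correction, under each alternative filter on dim probes and with the mean of all probes of a gene. It was 0 with median centring, 0 with the 8 h arrays only, with or without a dye term, 1 with processed signals and 1 with the deposited table (Slc7a6 in both), and 1 with no dye coefficient (Amd1). It was 4 with array weights, which were 0.381, 0.457, 1.90 and 1.29 for replicates 1 to 4 at 8 h, and 18 with an intensity trend in the prior, all 3 genes among them in both. Correlations of deviations between 8 h and 24 h arrays of the same replicate number were -0.262, 0.173, -0.158 and -0.0811. They cannot show whether the replicate numbers pair the times, because each number had opposite dyes at 8 h and 24 h. The dye was not removed from these deviations. A fit with the replicate block gave 8 genes, 2 of the 3 among them. Leaving out 1 array gave counts from 0 to 1228. The causes of these differences were not tested. Median centring moved the median of all genes from -0.01 to 0.12.

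With median centring the value was above 0 for Acads (0.11), Cdkn1a (0.07), Fcer1g (0.02), Gstm2 (0.02), Abcc9 (0.11), Gys1 (0.24), Mfap5 (0.02), Fbxo31 (0.03), Klhl38 (0.01), Optn (0.10), Cdh5 (0.02), Lamp1 (0.05), Ctsb (0.26), Notch3 (0.05), Srm (0.26) and Igfbp5 (0.12), all below 0 with loess. Myog turned to 0.26 with processed signals and 0.26 with the deposited table, and to 0.05 without background correction. Srm turned to 0.03 with the mean of its probes, and with array weights Hba-a3 turned to 0.01 and Myh4 to -0.23. Leaving out 1 array gave ranges across 0 for Ctsb (-0.74 to 0.18), Plpp1 (-0.03 to 0.25), Myh4 (-0.16 to 0.34), Igfbp5 (-0.44 to 0.05) and Sat1 (-0.07 to 0.15), and up to 0.00 for Hba-a3 (from -0.06).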
